A study of Mus musculus with 16 samples.

Results

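Megakaryocytes are the marrow cells that make platelets, and 31 genes known from these cells and from platelets are described here in RNA of sorted bone marrow stromal cells. The genes were taken by symbol from a list drawn up with earlier results of these data known, and all 31 were among the 52459 genes of the count table. The libraries came from Townes mice, in which human globin genes replace the mouse ones. SS mice (homozygous) carry the human alpha-globin gene and human sickle beta-globin (βS) on both alleles, with the human Aγ-globin gene beside it, and no mouse major or minor beta-globin. SA mice (heterozygous controls) carry the same human alpha-globin gene with 1 βS and 1 normal human beta-globin allele (βA), so that the control also holds a sickle allele. The labels give neither age nor sex. Live single cells without CD45, Ter119 and CD31 and with CD51 and CD140a on their surface were sorted. Platelets and megakaryocytes carry CD31, which the gate excludes, and also CD51, which it requires. The table holds 4 numbered SS and 4 numbered SA libraries, each read on 2 lanes.

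Megakaryocytes sit against the marrow sinusoids and shed platelets into the blood. A platelet carries a receptor for von Willebrand factor (the GPIb-IX-V complex), receptors for collagen, thrombin, ADP and thromboxane, and granules filled with chemokines and adhesive proteins. GATA1, FLI1, RUNX1 and NF-E2 are among the transcription factors that drive these genes. 12 of the 31 genes are known mainly from megakaryocytes and platelets and are called platelet-restricted here (Pf4, Ppbp, Mmrn1, Gp1ba, Gp1bb, Gp9, Gp5, Gp6, Clec1b, Treml1, Tubb1 and F2rl2). The other 19 are also known from leukocytes, stromal or other cells.

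Promoters are shown for genes on which the results turn: Pf4 and Ppbp, neighbours on chromosome 5 and the most abundant of the platelet-restricted genes, Gp1ba and Gp5, subunits of the von Willebrand factor receptor, and Cd9, whose level varied least between libraries. Each window is the RefSeq sequence of GRCm38.p6 from 250 bases before to 50 bases after the gene's start, 5′ to 3′ on the gene's strand. They lie at chr5:90772185-90772484 (plus strand), chr5:90768268-90768567 (plus), chr11:70638872-70639171 (plus), chr16:30310732-30311031 (minus) and chr6:125494711-125495010 (minus). Capitals mark GATA motifs, spelled AGATAA with its variant AGATAG and TGATAA with its variant TGATAG, and ETS motifs, spelled CAGGAAG with its variant CCGGAAG, on either strand.
Pf4: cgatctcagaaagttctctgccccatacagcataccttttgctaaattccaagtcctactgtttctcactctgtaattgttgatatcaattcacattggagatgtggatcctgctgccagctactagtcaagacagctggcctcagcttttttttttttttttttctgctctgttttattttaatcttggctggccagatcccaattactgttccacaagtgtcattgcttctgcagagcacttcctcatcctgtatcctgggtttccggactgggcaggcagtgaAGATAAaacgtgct
Ppbp: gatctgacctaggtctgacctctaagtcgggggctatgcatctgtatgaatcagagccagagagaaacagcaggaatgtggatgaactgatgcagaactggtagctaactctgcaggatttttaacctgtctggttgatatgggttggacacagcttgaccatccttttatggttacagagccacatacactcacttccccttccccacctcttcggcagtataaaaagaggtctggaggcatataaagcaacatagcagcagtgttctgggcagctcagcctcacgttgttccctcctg
Gp1ba: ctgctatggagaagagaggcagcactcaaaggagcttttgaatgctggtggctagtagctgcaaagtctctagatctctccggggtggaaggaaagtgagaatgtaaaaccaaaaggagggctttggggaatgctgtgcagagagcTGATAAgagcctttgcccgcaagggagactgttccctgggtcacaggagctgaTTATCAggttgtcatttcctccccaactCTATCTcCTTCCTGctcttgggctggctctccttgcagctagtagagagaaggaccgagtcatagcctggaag
Gp5: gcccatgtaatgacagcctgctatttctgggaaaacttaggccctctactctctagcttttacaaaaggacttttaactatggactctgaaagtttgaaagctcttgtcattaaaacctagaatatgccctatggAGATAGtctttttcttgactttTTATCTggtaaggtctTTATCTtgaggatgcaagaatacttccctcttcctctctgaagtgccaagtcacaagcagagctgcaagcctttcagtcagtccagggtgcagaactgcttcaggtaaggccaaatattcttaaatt
Cd9: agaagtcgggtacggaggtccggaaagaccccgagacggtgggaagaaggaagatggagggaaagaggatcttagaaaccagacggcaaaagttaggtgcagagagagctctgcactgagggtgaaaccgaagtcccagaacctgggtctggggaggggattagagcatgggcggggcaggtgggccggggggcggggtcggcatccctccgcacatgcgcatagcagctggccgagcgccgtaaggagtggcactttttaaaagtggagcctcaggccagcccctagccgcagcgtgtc

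The Gp1ba window held 3 GATA matches and 1 ETS match, all in the 104 bases before its start, with the last GATA match and the ETS match close together and not overlapping. Gp5 held 3 GATA matches, and Pf4 held 1, which lay 37 bases after its start. Windows were used for 26 of the 31 genes, 1 of them with 2 starts. Members on chromosome 18 (Rab27b and Cd226) were left out, a filter not applied to the 32851 mouse windows. Nfe2, Gng11 and Bin2, on other chromosomes, had no window in the set used. A GATA motif was present in 8 of 12 windows of platelet-restricted genes and in 11 of all 27 windows, against 29.8% of 32851 mouse windows of the same length. An ETS motif was present in 1 of the 12 and in 5 of the 27 (20.9% of all windows). The NF-E2 and AP-1 core TGAGTCA was found in the F2rl2 window alone among the 27 (5.20% of all windows), and the RUNX core TGTGGT in 3, those of Gp9, Lat and Fermt3 (16.8%). A match describes letters, and binding was not measured.

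Libraries held 24797857 to 31117007 counts, and the 31 genes took 0.0292% to 0.154% of them. Counts assigned to mouse globin genes were few in every library (Hbb-bt 9 to 153 counts, Hba-a1 86 to 482), and their origin was not tested. Stromal genes were abundant throughout: a list of 12 with Pdgfra (CD140a), Itgav (CD51), Cxcl12 and Lepr summed to 14842 to 32175 CPM in SA and 22028 to 31545 CPM in SS. CPM are counts scaled to a common library size, with totals adjusted by TMM factors. Genes of antigens that the gate removed were still read: Ptprc (CD45) was at 49.6 to 746 CPM and Pecam1 (CD31) at 0.831 to 44.7 CPM. SA replicates 1 and 2 and SS replicate 1 stood apart by 15 pan-leukocyte genes, at 4380, 4984 and 2921 summed CPM, with 427 to 1491 CPM in the other 5. They are called leukocyte-rich here by that list alone. SS replicate 2 had 57347 counts of Xist, with 57 to 420 in the others. For 1 lane of SS replicate 4 the title says SS and the group label SA, and the table, which has 1 column per library, is used here as its column name says (SS). Numbers in the titles that look like dates are shared by all SA libraries and by no SS library, so they cannot be told apart from genotype. Within SS, replicate 2, the library high in Xist, has such a number of its own, and the other SS libraries share another.

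Platelet-restricted transcripts were concentrated in 2 of the 8 libraries, both SA. Summed over the 12 genes, they reached 305 CPM in SA replicate 1 and 400 CPM in SA replicate 2, against 20.8 and 7.60 CPM in SA replicates 3 and 4. SS replicates 1 to 4 held 10.0, 12.6, 14.0 and 43.9 CPM. The lower of the first 2 was 6.95-fold above the highest of the other 6, and the highest library was 52.6-fold above the lowest. SA replicates 3 and 4 thus lay among or below the SS libraries, and the genotypes overlapped. Each of the 12 genes was highest in SA replicate 1 (3 genes) or SA replicate 2 (9 genes), and for 11 of them, all but Gp1bb, these were the highest 2 libraries. Of the 19 shared genes, 14 were highest in one of these libraries and for 8 they were the highest 2. Over all 17316 genes tested, 30.3% were highest in SA replicate 1 or 2, and for 10.4% these were the highest 2. The order was not particular to platelet-restricted genes. Of 20 neutrophil genes, 20 were highest in one of these libraries, and for 19 they were the highest 2. The numbers were 14 and 13 of 15 pan-leukocyte genes and 10 and 10 of 14 B-cell genes. They were lower for erythroid genes (8 and 2 of 15) and for macrophage and monocyte genes (5 and 3 of 16). Of the 31 genes, 20 were highest in SA replicate 2 (17.0% of all genes) and 1, Tbxas1, in SS replicate 1 (8.22%). The 3 leukocyte-rich libraries were, in any order, the highest 3 for 5 of the 31 (8.05%), namely Gp1ba, Plek, Ptgs1, Tbxas1 and Alox12. In bulk RNA, fewer cells of a type and less RNA per cell cannot be told apart.

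**Figure D1:**
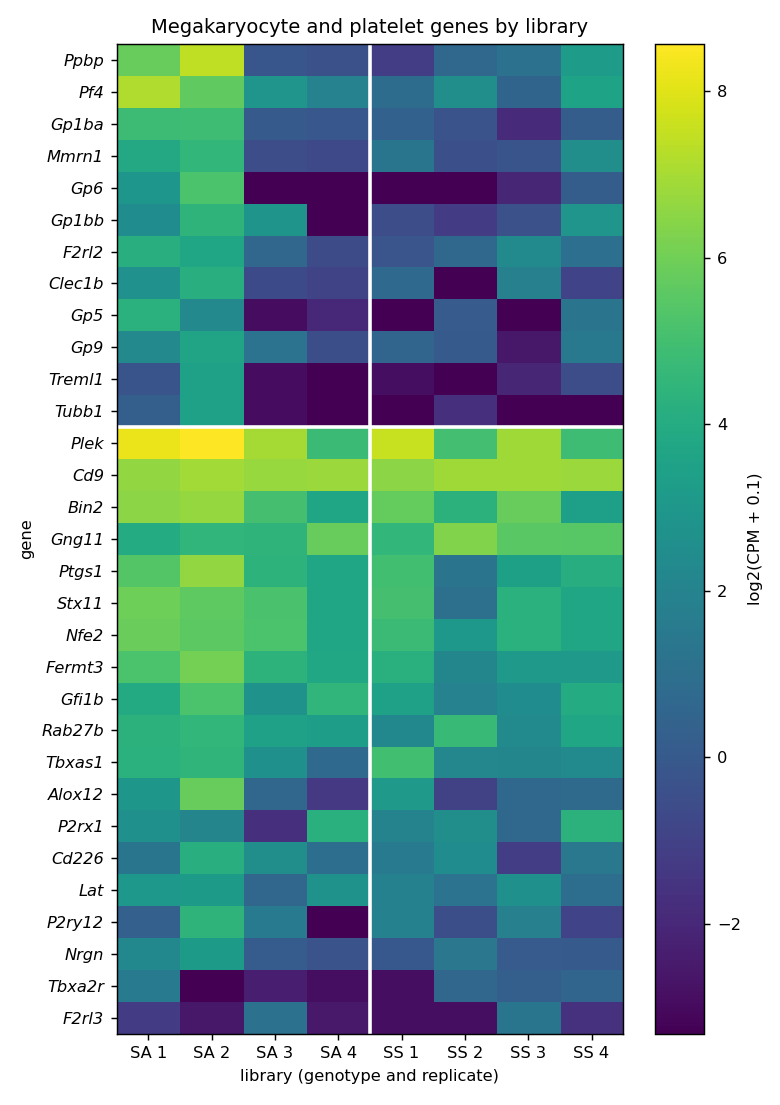
Level of each of the 31 genes (rows) in each library (columns, genotype and replicate), as log2(CPM + 0.1). Platelet-restricted genes are above the white horizontal line and shared genes below it, each sorted by mean level. SA replicates 1 and 2 stand out in the upper block, while Cd9 is even across all 8 libraries.

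The leukocyte-rich libraries were not all platelet-rich. SS replicate 1, with 2921 CPM of pan-leukocyte transcripts, had 10.0 CPM of platelet-restricted transcripts. SS replicate 4 had the lowest pan-leukocyte level, 427 CPM, and the highest platelet-restricted level among SS libraries, 43.9 CPM. SA replicates 1 and 2 were highest in both. The neutrophil list (20 genes) ran from 1412 CPM in SS replicate 4 to 36410 CPM in SA replicate 2, and was at 17670 CPM in SS replicate 1. The macrophage and monocyte list (16 genes) was ordered differently and peaked in SS replicate 3 at 2892 CPM. It held 1244 to 2195 CPM in SA and 1327 to 1996 CPM in the other SS libraries. Of its genes, 10 were highest in SS replicate 3 (12.9% of all genes), and 5 had a log2 fold change below 0 (51% of all genes). The erythroid list (15 genes) ran from 552 CPM in SS replicate 2 to 2327 CPM in SA replicate 2, a narrower range than the neutrophil list. Endothelial genes (12 genes) peaked in SS replicate 1 at 198 CPM, with 15.6 to 123 CPM in SA and 19.8 to 30.4 CPM in the other SS libraries. B-cell genes (14 genes) separated the genotypes, at 1912, 1144, 615 and 531 CPM in SA and 437, 416, 426 and 399 CPM in SS. All 14 had a log2 fold change below 0 (51% of all genes). edgeR called 0 of them, and DESeq2 called 7, each lower in SS (0.704% of all genes). For 3 of the 14, every SS library lay below every SA library (1.55% of all genes). Mast cell and basophil genes (9 genes, 3 of them at 0 throughout) reached 427 and 470 CPM in SA replicates 1 and 2, then 253 CPM in SS replicate 1 and 5.45 to 105 CPM elsewhere.

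**Figure D2:**
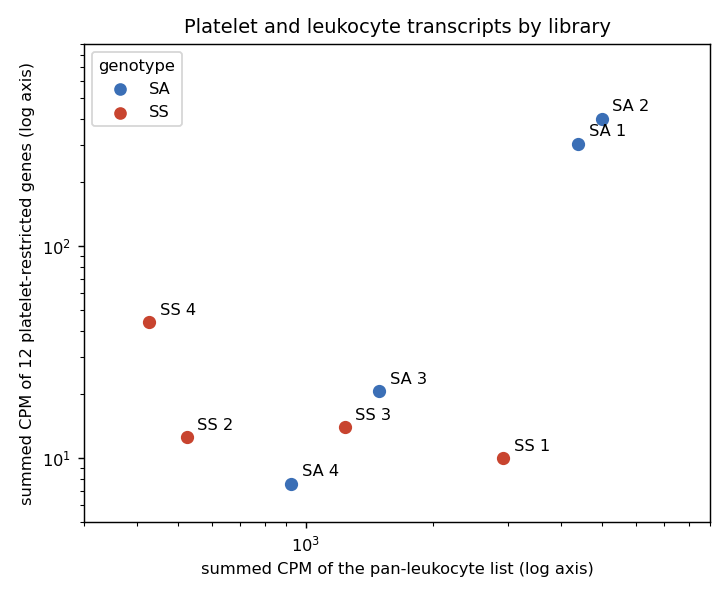
Summed CPM of the 12 platelet-restricted genes (vertical, log axis) against summed CPM of the 15 pan-leukocyte genes (horizontal, log axis), 1 point per library, labelled by genotype and replicate. SA replicates 1 and 2 are high on both axes. SS replicate 1 is high on the horizontal axis (2921 CPM) and low on the vertical one (10.0 CPM).

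Between genotypes, no member passed the test. edgeR's quasi-likelihood test, with Benjamini-Hochberg adjustment over 17316 genes and a threshold of 0.05, called 0 of the 27 members with enough counts to be tested (0% of all genes tested, in either direction). At an unadjusted p under 0.05, 5 members were lower in SS (2.96% of all genes) and 0 were higher (4.03%). DESeq2 called 1 of the 28 members it gave an adjusted p, Gp1ba, lower in SS (0.704% of all genes), and limma-voom called 0. For 0 of the 31 did every SS library lie below every SA library (1.55% of all genes) or above it (2.36%). The mean CPM was lower in SS for 27 of the 31, all 12 platelet-restricted genes among them (51% of all genes), and the SA mean was over 2 times the SS mean for 22 (11.7%). The 4 exceptions were F2rl3, P2rx1, Tbxa2r and Gng11. Of the 27 tested, 24 had a log2 fold change below 0 (51% of all genes), with a median of -1.52 (all genes -0.01). Passing the low-count filter through the SA libraries alone can favour members that are lower in SS. Without that filter, 27 of 31 members lay below 0 (49.7% of all genes), with a median of -1.54. The members were also chosen with earlier results of these data known, so neither median carries weight as evidence.

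With 1 library omitted at a time, the median stayed below 0, at its nearest -0.72 without SA replicate 2. SA replicates 1 and 2 were also omitted together, a choice made after their high levels were seen, so that a smaller difference follows from the choice and is given as a description. Without them, with 2 SA and 4 SS libraries, 13 of 28 members tested had a log2 fold change below 0 (45.9% of all genes), and the median was 0.11. Without SS replicate 1 as well, the count was again 13 of 28 (48.4% of all genes) and the median 0.09. With the mean log2 CPM of the pan-leukocyte list as a covariate, 17 of 27 members lay below 0 (50.5% of all genes) and the median was -0.26, with 0 members called.

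Granule chemokines gave the highest platelet-restricted levels. Pf4, platelet factor 4, a heparin-binding CXC chemokine of alpha granules, was at 143, 49.8, 7.18 and 3.78 CPM in SA replicates 1 to 4. In SS replicates 1 to 4 it was at 1.76, 5.81, 1.34 and 11.7 CPM. SS replicate 4 lay above SA replicates 3 and 4, and SS replicate 2 above SA replicate 4. The mean was 50.9 ± 64.8 CPM in SA and 5.15 ± 4.80 CPM in SS (SD, n = 4 libraries each; log2 fold change -3.30, SE 1.11, edgeR adjusted p = 0.695).

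Ppbp, pro-platelet basic protein, the precursor of the neutrophil attractant CXCL7, was at 56.4, 170, 0.801 and 0.661 CPM in SA. In SS it was at 0.351, 1.52, 2.11 and 9.26 CPM. All but SS replicate 1 exceeded SA replicates 3 and 4 (SS over SA on the log2 scale -4.10, SE 1.59, edgeR adjusted p = 0.695), and without SA replicates 1 and 2 the log2 fold change was 2.18. The genes are adjacent on GRCm38 (GENCODE M21), with Ppbp at 90768518 to 90770063 and Pf4 at 90772435 to 90773383 of chromosome 5, both protein-coding. They nevertheless changed places between libraries. Pf4 had 2.53 counts per Ppbp count in SA replicate 1 and 0.293 in SA replicate 2. In the other 6 libraries the ratio ran from 0.633 in SS replicate 3 to 8.96 in SA replicate 3. Mmrn1, multimerin 1, an alpha-granule protein that binds factor V, was at 14.3, 23.4, 0.601 and 0.514 CPM in SA and 2.35, 0.650, 0.740 and 5.79 CPM in SS. Every SS library exceeded SA replicates 3 and 4 (SS over SA on the log2 scale -2.02, SE 1.23, edgeR adjusted p = 0.766; 2.10 without SA replicates 1 and 2). Per kilobase of exon, mean SA levels were 70.6 CPM for Pf4, 52.6 for Ppbp and 1.65 for Mmrn1.

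**Figure D3:**
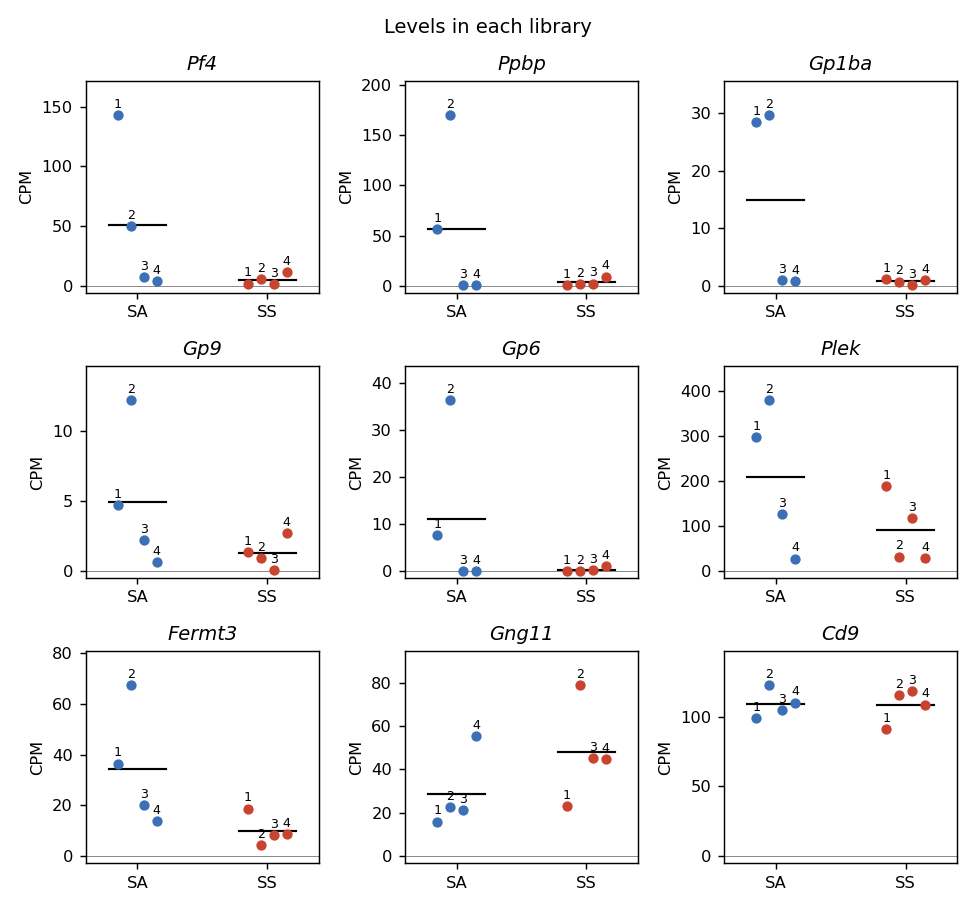
CPM of 9 genes in each library, with SA in blue and SS in red, replicate numbers above the points and the mean of each genotype as a horizontal line. For Pf4, Ppbp, Gp1ba and Gp6 the SA mean is raised by replicates 1 and 2, and replicates 3 and 4 sit among the SS points. Cd9 stays between 91.0 and 122 CPM.

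Subunits of the von Willebrand factor receptor did not move as a block. Gp1ba, the ligand-binding chain, was at 28.5 and 29.7 CPM in SA replicates 1 and 2, whereas SA replicates 3 and 4 held 0.935 and 0.844 CPM. SS libraries held 1.19, 0.722, 0.176 and 1.03 CPM. The first 2 SA libraries were nearly equal, and SS replicates 1 and 4 lay above the last 2. The mean was 14.97 ± 16.3 CPM in SA and 0.781 ± 0.448 CPM in SS (SS over SA on the log2 scale -4.25, SE 1.24, edgeR adjusted p = 0.631; DESeq2 adjusted p = 0.0116). Without SA replicates 1 and 2 it was -0.18. With the pan-leukocyte covariate it was -1.52.

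Gp9, which the complex needs to reach the surface, was at 4.72, 12.2, 2.20 and 0.624 CPM in SA and 1.37, 0.939, 0.0705 and 2.70 CPM in SS (SS over SA on the log2 scale -1.96, SE 1.15, edgeR adjusted p = 0.755). The value was -0.98 without SA replicate 2, -2.63 without SS replicate 4 and -0.15 without SA replicates 1 and 2. Gp5, the subunit cleaved by thrombin, was at 19.4 CPM in SA replicate 1 and 4.78 CPM in SA replicate 2. It had 1 and 4 counts in SA replicates 3 and 4, 0 counts in SS replicates 1 and 3, and 27 and 70 counts in SS replicates 2 and 4. Where it was detected in SS it exceeded SA replicates 3 and 4 (SS over SA on the log2 scale -2.91, SE 1.94, edgeR adjusted p = 0.777; 3.11 without SA replicates 1 and 2). Gp1bb, the chain joined to Gp1ba by disulfide bonds, followed another order. It was at 5.36, 21.3, 7.04 and 0 CPM in SA and 0.597, 0.325, 0.670 and 7.20 CPM in SS (SS over SA on the log2 scale -1.94, SE 1.47, edgeR adjusted p = 0.7999), and was -0.91 without SA replicate 2 and -3.98 without SS replicate 4. SA replicate 3 and SS replicate 4 were thus high for Gp1bb while low for Gp1ba. Gp1bb exons overlap those of Sept5 on the same strand in GENCODE M21, so its level is uncertain.

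Receptors that signal through ITAM or ITIM motifs were highest in the same pair of SA libraries. Gp6, the collagen receptor, had 202 and 1047 counts in SA replicates 1 and 2, 4 in SS replicate 3, 32 in SS replicate 4 and 0 in the other 4 libraries. It was not tested by edgeR, having too few libraries with counts. 3 counts, the floor used here, correspond to 0.0965 to 0.112 CPM per library, and values at or under it, such as the 2 counts of Gp9 in SS replicate 3, are printed as counted but are not distinguished from 0 at this depth. Treml1, an alpha-granule receptor that reaches the surface on activation, had 20 and 321 counts in SA replicates 1 and 2 and at most 19 elsewhere, and was not tested either. Clec1b, the podoplanin receptor CLEC-2, was at 6.45 and 17.1 CPM there, while SA replicates 3 and 4 held 0.534 and 0.440 CPM, and SS had 1.58, 0, 3.49 and 0.418 CPM in SS. Its exons overlap those of Clec9a on the same strand, which leaves its level uncertain too. Lat, an adaptor of this pathway that T cells also use, was spread more evenly, at 1.402 to 8.70 CPM in SA and 1.83 to 6.24 CPM in SS.

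**Figure D4:**
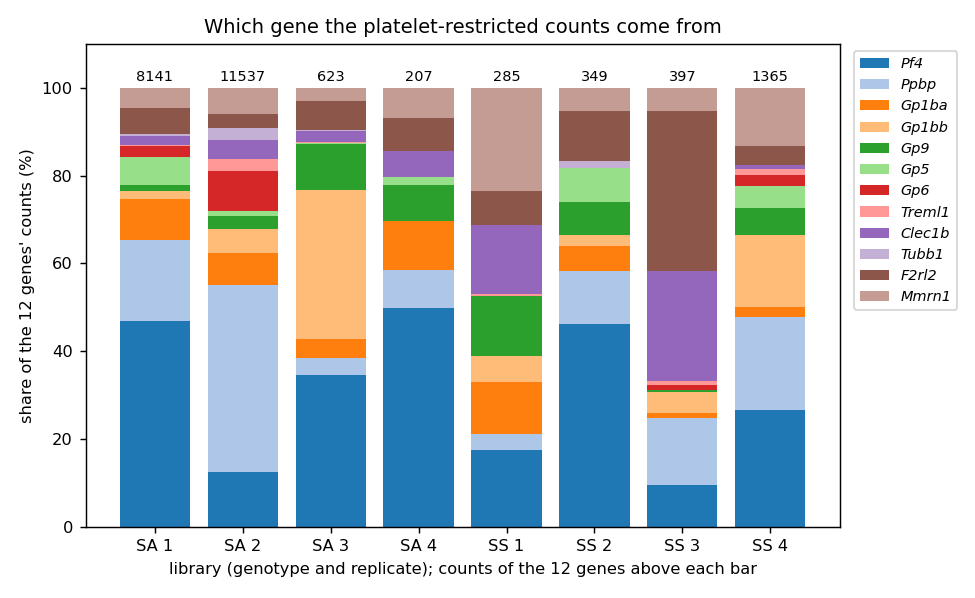
Share of the counts of the 12 platelet-restricted genes that came from each gene, per library, with the summed counts of the 12 above each bar. Pf4 gave 46.8% in SA replicate 1 and 12.5% in SA replicate 2, where Ppbp gave 42.6%. Mmrn1 gave the largest share in SS replicate 1 and F2rl2 in SS replicate 3.

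Counts of platelet-restricted genes had a different makeup in each library. They numbered 8141 and 11537 in SA replicates 1 and 2, and 207 to 1365 in the others. Ppbp gave 18.5% of them in SA replicate 1 and 42.6% in SA replicate 2, and Gp6 gave 2.48% and 9.08%. Gp5 went the other way, at 6.36% and 1.196%. In SA replicate 3, Gp1bb gave 33.9% of 623 counts, and in SS replicate 3, F2rl2 and Clec1b gave 36.5% and 24.9% of 397. The shares of Gp1bb and Clec1b are uncertain, as their exons overlap other genes on the same strand. Mmrn1 gave 23.5% in SS replicate 1. The summed level therefore described different mixtures of transcripts in different libraries.

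Receptors for soluble agonists were low and each had its own pattern. F2rl2, protease-activated receptor 3, a cofactor for thrombin sensing on mouse platelets, was at 17.7, 12.7, 1.402 and 0.587 CPM in SA and at 0.773, 1.44, 5.11 and 1.93 CPM in SS. F2rl3, the thrombin receptor PAR4, had 61 and 68 counts in SA replicate 3 and SS replicate 3 and at most 9 elsewhere. P2ry12, the ADP receptor that is also a microglial gene, was at 21.3 CPM in SA replicate 2 and at most 3.65 CPM in any other library. Its exons overlap Med12l on the opposite strand, as do those of Plek, Ptgs1, Tbxas1, Fermt3 and Cd9 with other genes. With the strand setting unknown, reads of such pairs cannot be told apart. P2rx1, an ATP-gated channel, was at 6.19, 4.12, 0.200 and 18.7 CPM in SA and 3.90, 5.78, 1.52 and 19.7 CPM in SS (SS over SA on the log2 scale 0.08, SE 1.07, edgeR adjusted p = 0.993). It was highest in replicate 4 of both genotypes. Tbxa2r, the thromboxane receptor, had 78 counts in SA replicate 1 and 0 to 3 in the other SA libraries, against 1, 39, 31 and 43 in SS replicates 1 to 4.

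Enzymes of eicosanoid synthesis were also high in SS replicate 1. Ptgs1, cyclooxygenase 1, was at 42.1, 100.4, 20.7 and 13.2 CPM in SA and at 30.7, 2.31, 10.6 and 16.9 CPM in SS (SS over SA on the log2 scale -1.54, SE 0.77, edgeR adjusted p = 0.734), and -0.15 without SA replicates 1 and 2. Tbxas1, thromboxane synthase, was highest in SS replicate 1, at 30.99 CPM, with 1.58 to 21.8 CPM in SA and 4.34 to 4.98 CPM in the other SS libraries. Alox12, the platelet 12-lipoxygenase, was at 54.8 CPM in SA replicate 2, with 8.61 CPM in SS replicate 1, 7.84 CPM in SA replicate 1 and at most 1.64 CPM elsewhere. SS replicate 1, poor in Pf4 and Ppbp, was thus among the highest 3 libraries for each of these enzymes.

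For 5 of the 6 signalling and cytoskeletal genes, all but Gng11, SA replicates 1 and 2 were the highest 2 libraries. Tubb1, the beta-1 tubulin of the platelet microtubule ring, had 321 counts in SA replicate 2, 30 in SA replicate 1, 6 in SS replicate 2, 1 in SA replicate 3 and 0 in the rest. Plek, pleckstrin, a kinase C substrate of platelets and leukocytes, was the most abundant member by CPM, at 297, 379, 126 and 27.4 CPM in SA and 187, 31.8, 117 and 28.8 CPM in SS. All SS libraries exceeded SA replicate 4, and none reached SA replicate 1 (SS over SA on the log2 scale -1.18, SE 0.76, edgeR adjusted p = 0.770). Plek turned to 0.53 with the pan-leukocyte covariate and 0.26 without SA replicates 1 and 2. Fermt3, kindlin-3, an integrin activator of blood cells, was at 36.5, 67.4, 20.3 and 13.9 CPM in SA and 18.7, 4.30, 8.39 and 8.55 CPM in SS. SS replicates 2 to 4 were each below all SA libraries, and SS replicate 1 lay above SA replicate 4 (SS over SA on the log2 scale -1.79, SE 0.58, edgeR adjusted p = 0.695, unadjusted p = 0.0108). Without SA replicates 1 and 2 its log2 fold change was -0.76. Bin2, a membrane-bending protein of blood cells, ran from 12.5 to 101.96 CPM in SA and 10.4 to 55.6 CPM in SS. Nrgn, neurogranin, a calmodulin-binding protein, was at 4.65 and 8.80 CPM in SA replicates 1 and 2 and at 0.734 to 2.53 CPM in the other 6.

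Gng11, a G protein gamma subunit also found outside the blood lineages, was ordered the other way. It was at 15.9, 22.5, 21.4 and 55.3 CPM in SA and 23.2, 78.8, 45.4 and 44.7 CPM in SS. SA replicates 1 and 2, richest in platelet-restricted transcripts, were among its lowest 3 libraries, and SA replicate 4 exceeded SS replicates 1, 3 and 4. Cd9, a tetraspanin of platelets and of many other cells, was nearly level. It was at 98.9, 122, 104.9 and 110.1 CPM in SA and 91.0, 115, 119 and 108.7 CPM in SS, with means of 109.1 ± 10.0 and 108.4 ± 12.3 CPM (SS over SA on the log2 scale -0.01, SE 0.18, edgeR adjusted p = 0.995). Cd226, an adhesion receptor of platelets and lymphocytes, was at 18.0 CPM in SA replicate 2 and at 0.352 to 5.74 CPM in the other 7.

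Secretion genes and transcription factors were spread over more libraries than the platelet-restricted genes. Stx11, a syntaxin of granule release, was at 61.8, 48.2, 35.4 and 13.03 CPM in SA and 33.7, 2.02, 19.1 and 13.1 CPM in SS (SS over SA on the log2 scale -1.22, SE 0.70, edgeR adjusted p = 0.754). Nfe2, a subunit of the factor NF-E2, was at 57.9, 47.3, 36.2 and 12.4 CPM in SA and 27.7, 8.02, 19.2 and 12.7 CPM in SS (SS over SA on the log2 scale -1.19, SE 0.51, edgeR adjusted p = 0.695, unadjusted p = 0.0400). SA replicate 3, with 7.18 CPM of Pf4 and 0.801 CPM of Ppbp, ranked next after SA replicates 1 and 2 for both. Without SA replicates 1 and 2 the log2 fold change was -0.50 for Stx11 and -0.52 for Nfe2. Gfi1b, a repressor of the erythroid and megakaryocyte lineages, ran from 6.61 to 36.9 CPM in SA and 3.72 to 15.6 CPM in SS. Rab27b, a small GTPase of dense-granule release, was highest in SS replicate 2 at 26.4 CPM, with 10.0 to 23.6 CPM in SA and 4.64 to 13.1 CPM in the other SS libraries.

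**Figure D5:**
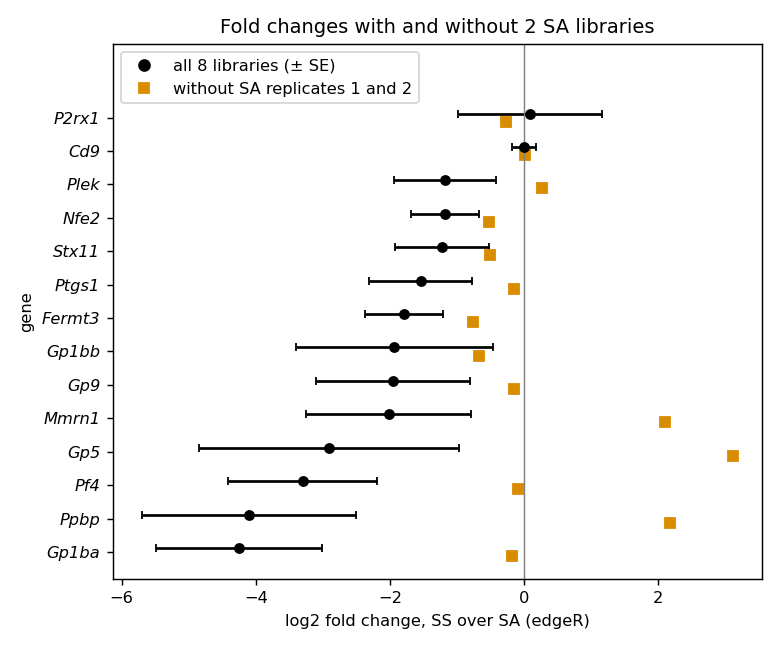
Log2 fold change of SS over SA for the 14 tested genes described in full, with all 8 libraries (black points, bars of 1 SE) and without SA replicates 1 and 2 (orange squares). Ppbp, Gp5, Mmrn1 and Plek move from below to above 0, as does Cd9, which is near 0 in both. P2rx1 moves from above to below 0. Gp1ba and Pf4 move to near 0 (-0.18 and -0.09).

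Other genes of the lineage, 76 in the table and 73 tested, gave a median log2 fold change of -0.30, with 47 below 0 (51% of all genes). edgeR and limma-voom called 0 of them. At an unadjusted edgeR p under 0.05, 3 were lower (2.96% of all genes) and 6 higher in SS (4.03%). DESeq2 called 2, both higher (0.914% of all genes). Many of these genes are also stromal or leukocyte genes. The 4 with the smallest p were Pear1, a platelet and endothelial receptor (10.2 ± 2.17 CPM in SA and 30.8 ± 11.6 CPM in SS, adjusted p = 0.520), Cd151, a tetraspanin (27.4 ± 7.49 and 55.5 ± 10.7 CPM, adjusted p = 0.604), Btk, a tyrosine kinase of B cells and platelets (35.6 ± 28.2 and 11.1 ± 6.25 CPM, adjusted p = 0.695), and Myl9, a myosin light chain (48.3 ± 14.2 and 91.4 ± 40.8 CPM, adjusted p = 0.695). Pear1 and Cd151 were higher in every SS library than in every SA library (2.36% of all genes). Both were the DESeq2 calls (adjusted p = 0.00347 and 0.0327).

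For 26 of these 76 genes, SA replicates 1 and 2 were the highest 2 libraries (10.4% of all genes). Itga2b and Vwf, named after their values were seen, were among them. Itga2b, the integrin alpha IIb chain of the fibrinogen receptor, was at 15.9, 36.9, 3.17 and 0.0367 CPM in SA and 3.86, 0.108, 1.09 and 0.225 CPM in SS. Vwf, von Willebrand factor, also made by endothelium, was at 36.1, 13.4, 6.51 and 0.734 CPM in SA and 3.48, 5.53, 0.634 and 3.51 CPM in SS. Others of the list, also named after their values were seen, were ordered differently. Itgb3, the integrin beta-3 chain, was at 226 CPM in SA replicate 2 and 114 CPM in SS replicate 2, with 77.2 CPM in SA replicate 1. Runx1, a transcription factor of the lineage, was highest in SA replicate 4 at 866 CPM, and Cd36, a scavenger receptor, in SS replicate 4 at 70.6 CPM.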

How the data were processed

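RNA of sorted marrow stromal cells was sequenced in 8 libraries on 2 lanes each (16 GEO samples). The authors deposited raw counts per gene symbol, with 1 column per library. Per the submitters' processing notes, bcl2fastq, STAR, featureCounts and DESeq2 were used with mm10 and GRCm38. No version, annotation or strand setting is stated there. The authors' normalized table was not used. The labels number the libraries but do not say that they are separate animals, so p-values measure the spread between libraries, which may be technical.

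Over 17316 genes kept by filterByExpr, edgeR 4.0.16 (R 4.3.3) ran its robust quasi-likelihood F test with TMM factors. The SE is the log2 fold change over the root of F. Alternatives were DESeq2 1.42.0, limma-voom (limma 3.58.1), other scaling and filters, a replicate block, a pan-leukocyte covariate and omitted libraries. The scripts were tested on simulated data. Positions and exon lengths are from GENCODE M21.

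The members and lists were chosen with earlier results of these data known. By rule, values in every library are given for the member of each role class with the highest mean CPM, for the von Willebrand factor receptor and for members with an unadjusted p under 0.05 or without overlap. Of each other list at most the 4 genes with the smallest p are named. Other members and lineage genes shown by library were chosen after their values were seen. Floors (3 counts) cover counting error only.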

Additional observations from a re-analysis of the deposited data

Results flagged for a closer look

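Dixon's criterion compared 1 library with the other 3 of its genotype 68 times (31 genes and 3 sums, in SA and in SS). It flags about 1 in 20, here 3.40, of independent normal values. CPM that are skewed or 0, and sums of the same genes, are not such values, so 3.40 is no chance number here. In all, 15 cases were flagged, each 1 library for 1 gene or sum. 4 of them were SA replicate 2: Treml1 at 11.1 CPM (next highest 0.750), Tubb1 at 11.1 CPM (next 1.12), P2ry12 at 21.3 CPM (next 2.84) and Alox12 at 54.8 CPM (next 7.84). 3 were SS replicate 4, with Gp1bb at 7.20 CPM (next 0.670), Gp6 at 1.03 CPM (next 0.141) and the sum of platelet-restricted genes at 43.9 CPM (next 14.0). SS replicate 1 stood apart for Tbxas1 at 30.99 CPM (next 4.98) and Alox12 at 8.61 CPM (next 1.64), and SS replicate 2 for Nrgn at 2.53 CPM (next 0.952) and Tubb1 at 0.217 CPM, with the other 3 SS libraries at 0. F2rl3 stood apart in replicate 3 of both genotypes, at 2.04 CPM in SA (next 0.337) and 2.40 CPM in SS (next 0.225). In SA, Tbxa2r was at 2.92 CPM in replicate 1 (next 0.1001) and Gng11 at 55.3 CPM in replicate 4 (next 22.5).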

How the results depend on the processing

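edgeR called 0 members over all 8 libraries and with 1 library omitted. DESeq2, run on all 8 libraries, called 1 (Gp1ba, log2 fold change -4.28). Members below 0 numbered 23 to 28 with 1 library omitted, and their median ran from -1.86 (without SA replicate 3) to -0.72 (without SA replicate 2). The omissions without SA replicates 1 and 2, and also without SS replicate 1, were chosen after seeing the data. They gave 13 of 28 members below 0 each, with medians of 0.11 and 0.089, and the pan-leukocyte covariate gave -0.26. Without SA replicates 1 and 2, Ppbp was at 2.18, Gp5 3.11, Mmrn1 2.10, Plek 0.26, P2rx1 -0.28 and Cd9 0.013. Without the 3 leukocyte-rich libraries, Pf4 was at 0.20, Ppbp 2.55, Gp5 3.53, Mmrn1 2.10, P2rx1 -0.062 and Cd9 0.085. With the covariate, Plek was at 0.53, Mmrn1 0.39 and P2rx1 -0.94. The cause of these turns was not tested beyond the omissions themselves. With 1 library omitted, P2rx1 fell between -0.96 (SS replicate 4 omitted) and 1.15 (SA replicate 4 omitted) and was also below 0 without SA replicate 2 (-0.11) and SA replicate 3 (-0.32). Cd9 ran from -0.063 to 0.068, above 0 without SA replicate 2 (0.053) and SS replicate 1 (0.068). Pf4 ran from -4.09 to -2.003, Ppbp from -5.41 to -2.54, Gp1bb from -3.98 to -0.91, Gp5 from -4.21 to -1.06, Gp9 from -2.63 to -0.98, Mmrn1 from -2.95 to -1.10, Ptgs1 from -2.15 to -0.74 and Plek from -1.80 to -0.72. For the other lineage genes the median lay between -0.48 and -0.16 with 1 library omitted, turned to 0.18 with the covariate (27 of 73 below 0) and to 0.17 without SA replicates 1 and 2 (29 of 74 below 0), and DESeq2 called 2 higher. The replicate numbers were not used as pairs in the main test. Deviations of same-numbered libraries correlated at 0.22, -0.15, -0.02 and 0.14, and those of differently numbered libraries at -0.28 to 0.22. Such correlations over all genes cannot exclude a pairing. With the replicate number as a block, 0 members were called and Gp1ba was at -3.20. Scaling and low-count filters turned no direction among the 14 genes and changed no call. Members at a few counts per library are limited by depth.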
